A study of Homo sapiens with 6 samples.

Results

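Cajal body RNA genes were followed across 6 microarrays of a human neuroblastoma line treated with securinine or 16F16, both inhibitors of protein disulfide isomerase, or with solvent. Members were the named genes of the array whose symbol starts with SNORA, SNORD or SCARNA, each taken at its brightest probe set. This rule found 23 genes of 14884 named genes, and all 23 were SCARNA genes, 1 probe set each. No named probe set carried a SNORA or SNORD symbol (0 and 0 genes), so nucleolar RNAs were not analysed here, and the box H/ACA and box C/D classes were compared within the SCARNA genes. The classes rest on the textbook assignment of each RNA: 13 members were box H/ACA, 5 box C/D, 4 carried both boxes and 1, SCARNA27, was left without a class. SCARNA9L was placed in box C/D by its name only.

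SH-SY5Y cells carry features of sympathetic neurons. The 3 groups were mock treatment with methanol, the solvent, securinine at 30 µM, a plant alkaloid, and 16F16 at 4 µM, a small molecule, each for 24 h. Each group had 2 arrays (Affymetrix Human Gene 2.0 ST), which the labels call biological replicates without saying how the cultures were separated, so p-values measure only the spread between these samples. All groups were this 1 cell line in serum-containing medium, and the doses of the compounds differed.

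Small Cajal body RNAs (scaRNAs) guide the chemical modification of the small nuclear RNAs of the spliceosome. They work in Cajal bodies, nuclear condensates built around the protein coilin. Box C/D RNAs assemble with the methyltransferase fibrillarin and direct 2'-O-methylation, box H/ACA RNAs assemble with dyskerin and direct pseudouridylation, and mixed RNAs carry both domains. Most human scaRNAs are cut out of the introns of other genes, so their supply depends on transcription of the host, on release from the intron and on binding of the core proteins.

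Of the arrays as a whole, members correlated at 0.986 to 0.994 between arrays of 1 group and at 0.964 to 0.989 between groups. The median log2 value over 53617 probe sets lay between 4.16 and 4.23 on every array. All 10 measured neuroblastoma markers of 13 exceeded the lower quartile over all probe sets on every array. Their mean log2 level was 9.79 on both mock arrays, 8.97 and 9.08 with securinine and 9.40 and 9.38 with 16F16, and 6 of the 10 fell with securinine (10.6% of all genes fell) and 3 with 16F16 (0.779%). Markers of epithelial, blood, endothelial and fibroblast cells were measured for 8 of 17 genes, with a mean log2 level of 4.58 and 4.65 in mock, 4.601 and 4.56 with securinine and 4.47 and 4.62 with 16F16. Of these, CD14 rose with securinine (0.57 ± 0.14 on the log2 scale, SE, adjusted p = 0.038 in limma), and 0 of 8 passed with 16F16 (limma, 1 with unadjusted p below 0.05). The fibroblast gene DCN lay in the lower quartile on all 6 arrays and the endothelial gene PECAM1 on 3. LUM, the other measured fibroblast gene, did so on 0 arrays, with a mean log2 level of 6.09. The epithelial gene KRT18 had a mean of 6.77, also with 0 arrays in the lower quartile. The part of these markers in the results was not tested. In bulk RNA, fewer cells with an RNA and less of it per cell cannot be told apart.

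RefSeq windows were at hand for 5 host genes of the members that passed, and not for the scaRNA genes themselves. There was none for KPNA4, which spans SCARNA7, the RNA that rose most with securinine. Each window runs from 250 bases before to 50 bases after the start of the gene (RefSeq, GRCh38.p14). A pair of windows is shown because SCARNA9 and SCARNA17, which lie within these genes, were among the RNAs that rose most. Capitals mark the GC box GGGCGG and the CCAAT box, on either strand. The first is the start of CEP295, a centrosome protein gene that spans SCARNA9 (chr11:93661432-93661731, plus strand), and the second that of SNHG22, a noncoding gene that spans SCARNA17 (chr18:49813773-49814072, plus strand).
CEP295: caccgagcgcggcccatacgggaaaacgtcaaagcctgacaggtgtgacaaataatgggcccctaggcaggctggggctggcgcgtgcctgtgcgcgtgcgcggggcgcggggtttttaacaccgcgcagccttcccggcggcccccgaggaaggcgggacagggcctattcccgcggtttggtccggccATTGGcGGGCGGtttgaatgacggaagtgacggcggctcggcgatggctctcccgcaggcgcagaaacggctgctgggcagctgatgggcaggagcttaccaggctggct
SNHG22: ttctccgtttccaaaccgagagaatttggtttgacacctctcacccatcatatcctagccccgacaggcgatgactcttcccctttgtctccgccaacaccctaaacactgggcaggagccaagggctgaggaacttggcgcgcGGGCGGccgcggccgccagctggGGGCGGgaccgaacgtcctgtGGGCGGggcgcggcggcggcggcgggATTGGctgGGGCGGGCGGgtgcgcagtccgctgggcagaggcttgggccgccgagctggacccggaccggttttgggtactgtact
The CEP295 window held 1 GC box and 1 CCAAT box, and the SNHG22 window 5 GC boxes, of which the last pair overlap, and 1 CCAAT box. Over all 35116 windows of the same length, 45% held GGGCGG and 34.6% CCAAT. Neither of the windows held CACGTG (in 7.26% of all windows), TGACGTCA (1.85%), TGACNNNGC (13.3%), TGANTCA (7.71%) or TATAAA (11.5%), searched on both strands. A match describes these letters only.

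The 23 scaRNA genes spanned a wide range of log2 values. SCARNA12, a mixed RNA that guides modification of U5 and lies in the prohibitin gene PHB2, was the brightest over the 6 arrays at a mean of 10.3. It was followed by SCARNA22, a box H/ACA RNA within the histone methyltransferase gene NSD2, at 9.86, SCARNA17 at 9.70 and SCARNA10, a mixed U5 guide, at 9.36. The dimmest were the box H/ACA RNAs SCARNA15 (3.56), SCARNA14 (4.26) and SCARNA23 (4.66), and on 1 of the 6 arrays SCARNA15 did not exceed the lower quartile over all probe sets. The other 22 were above that quartile on every array. Values of different probe sets depend on their probes, so this order is of signal and not of molecules.

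**Figure D1:**
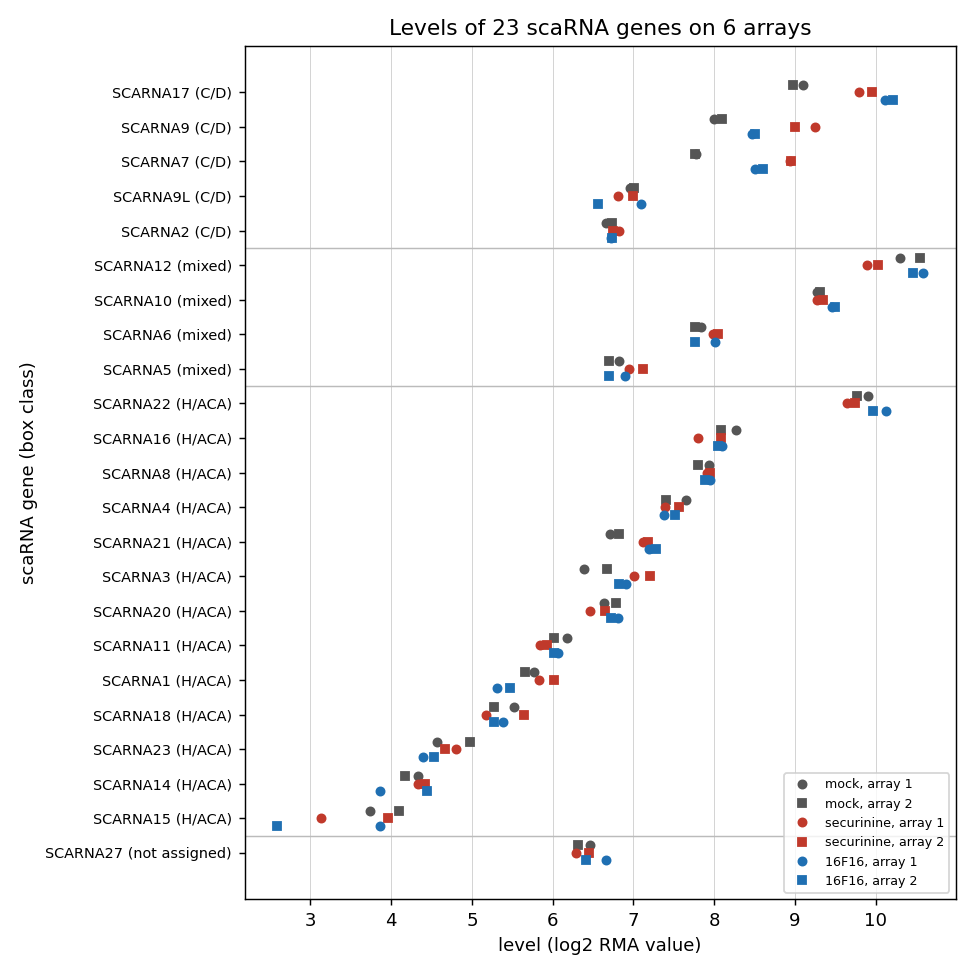
Level of each of the 23 scaRNA genes on each of the 6 arrays (horizontal axis, log2 RMA value), grouped by box class and ordered by mean level; circles and squares are the 2 arrays of a group. SCARNA7, SCARNA9 and SCARNA17 sit higher on all treated arrays than on the mock arrays, as do the box H/ACA genes SCARNA3 and SCARNA21. Of the 13 box H/ACA genes, 7 did not overlap with mock under securinine (53.8%, against 60.9% of all genes). With 16F16 5 did not (38.5%, against 51.7%).

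Securinine was set against mock to ask which scaRNA genes the compound changed. The 3 largest rises were box C/D RNAs, SCARNA7, SCARNA9 and SCARNA17, which rose 2.26-fold, 2.10-fold and 1.79-fold. The box H/ACA RNAs SCARNA3 and SCARNA21 rose by smaller steps, and the mixed RNA SCARNA12 fell. In total 5 of 23 rose and 1 fell at an adjusted p under 0.05, 26.1% of members, where 19.0% of all 14884 genes passed (8.40% higher and 10.6% lower). The median difference of the 23 was 0.021 and that of all genes -0.035 on the log2 scale, both near 0. The median of the 23 was -0.021 after quantile normalization, -0.0094 with arrays centred on their median and 0.077 without mock replicate 1, so its sign is not settled. The 2 groups of arrays did not overlap for 14 members, 60.9%, which is also the share over all genes (60.9%).

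SCARNA7, a box C/D RNA that guides methylation of U1, measured 7.77 and 7.76 in mock and 8.94 and 8.95 with securinine. The groups were far apart and the arrays within each nearly equal. The difference was 1.18 ± 0.080 (SE of the fit, n = 2 arrays per group, adjusted p = 0.0023 in limma). SCARNA9, which guides methylation of U2, measured 8.002 and 8.10 in mock and 9.245 and 9.003 with securinine, again without overlap. It rose by 1.07 ± 0.11 (adjusted p = 0.0044 in limma). SCARNA17, a guide to U4, measured 9.11 and 8.97 in mock against 9.80 and 9.96, and rose by 0.84 ± 0.10 (adjusted p = 0.0065 in limma). These 3 calls held under all 15 alternatives run, with adjusted p-values of at most 0.050.

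The other box C/D members did not pass. SCARNA2, another guide to U2, measured 6.67 and 6.74 in mock and 6.82 and 6.75 with securinine, a difference of 0.080 ± 0.080 (95% interval -0.12 to 0.28). SCARNA9L, a copy related to SCARNA9, was at -0.080 ± 0.18 (-0.53 to 0.37). Copies may share probes, so the separate values of SCARNA9 and SCARNA9L are uncertain. The median over the 5 box C/D genes was 0.84, against -0.034 over the 13 box H/ACA genes and 0.12 over the 4 mixed genes. The box H/ACA median changed sign with 1 array left out, to 0.077 without mock replicate 1 and 0.042 without securinine replicate 1, and was -0.13 without securinine replicate 2, while the box C/D median stayed between 0.75 and 0.92. Of the 5 box C/D genes 3 passed, all higher (60.0%, where 19.0% of all genes passed and 8.40% were higher).

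Among the box H/ACA genes 2 of 13 rose and 0 fell, 15.4% called against 19.0% of all genes, so the class count is near the background. SCARNA3 measured 6.39 and 6.67 in mock and 7.01 and 7.21 with securinine, which gave 0.58 ± 0.13 (adjusted p = 0.033 in limma). The groups did not overlap, and the call was kept in 7 of 15 alternatives. SCARNA21, a guide to the minor spliceosome RNA U12, measured 6.71 and 6.82 in mock and 7.12 and 7.18 with securinine. It rose by 0.38 ± 0.086 (adjusted p = 0.035 in limma, kept in 6 of 15 alternatives). The 11 others had differences between -0.37 and 0.22 and adjusted p-values of 0.17 to 0.97 in limma. They include SCARNA22 (-0.15 ± 0.099), SCARNA11, a U5 guide (-0.21 ± 0.092), SCARNA16, a U1 guide (-0.24 ± 0.12), the U2 guide SCARNA8 (0.061 ± 0.086) and SCARNA15 (-0.37 ± 0.47), whose arrays scattered widely.

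SCARNA12 was the member that fell. It measured 10.30 and 10.55 in mock and 9.89 and 10.03 with securinine, without overlap. The fall of 0.47 ± 0.12 passed narrowly (adjusted p = 0.049 in limma) and was lost in 10 of 15 alternatives, with adjusted p-values up to 0.20. SCARNA10 was at 0.021 ± 0.078. SCARNA5 and SCARNA6, both within the autophagy gene ATG16L1 and both mixed guides to U5, were at 0.28 ± 0.11 and 0.22 ± 0.11 without passing (adjusted p = 0.16 and 0.22 in limma). Both securinine arrays of SCARNA5 (6.95 and 7.12) lay above its mock arrays (6.82 and 6.70), as did those of SCARNA6 (7.99 and 8.05 against 7.84 and 7.76).

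16F16 was compared with mock for the same question. SCARNA17 rose 2.18-fold and SCARNA7 1.73-fold, both box C/D, and the 21 others did not pass. SCARNA17 measured 10.12 and 10.21 with 16F16 against 9.11 and 8.97 in mock, a rise of 1.13 ± 0.10 (adjusted p = 0.026 in limma). SCARNA7 measured 8.50 and 8.61 against 7.77 and 7.76, and rose by 0.79 ± 0.080 (adjusted p = 0.027 in limma). The arrays of the 2 groups did not overlap for either RNA. Members passed in 8.70% of cases (2 of 23) and all genes in 1.50% (0.719% higher and 0.779% lower), and 6 of 23 (26.1%) had an unadjusted p under 0.05, where 21.1% of all genes did. Both calls were kept in 6 of 15 alternatives. They were lost with adjustment over all probe sets and with only the 4 arrays compared, where 0 of all genes passed. Neither call was kept when any 1 array was left out. In those fits the differences stayed between 1.06 and 1.19 for SCARNA17 and between 0.73 and 0.84 for SCARNA7. With 16F16 9 of 23 members did not overlap with mock (39.1%, against 51.7% of all genes).

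SCARNA9 was at 0.44 ± 0.11 with 16F16 (8.47 and 8.51 against 8.002 and 8.10, adjusted p = 0.10 in limma) and SCARNA21 at 0.47 ± 0.086 (7.19 and 7.29 against 6.71 and 6.82, adjusted p = 0.067). Neither passed, though the arrays did not overlap with mock, and both passed when only genes above the median of all probe sets were tested or when the variance prior followed an intensity trend. SCARNA3 was at 0.34 ± 0.13 (6.91 and 6.83 against 6.39 and 6.67, adjusted p = 0.22 in limma). SCARNA12, which fell with securinine, measured 10.59 and 10.46 with 16F16 and was at 0.096 ± 0.12. SCARNA1, a box H/ACA guide to U2, was at -0.32 ± 0.11 (5.31 and 5.47 against 5.77 and 5.66, adjusted p = 0.18 in limma). None of 13 box H/ACA genes passed (limma, 3 with unadjusted p below 0.05), and their median was -0.069 (0.028 without mock replicate 1, -0.14 without mock replicate 2). None of 4 mixed genes passed (limma, 0 with unadjusted p below 0.05), with a median of 0.089. Over all genes 1.50% passed and 21.1% had an unadjusted p below 0.05. The median of the 5 box C/D genes was 0.44 and that of all 23 members 0.047, against -0.012 over all genes. Leaving out 1 array moved the median of the 23 between 0.015 (without 16F16 replicate 1) and 0.11 (without 16F16 replicate 2).

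**Figure D2:**
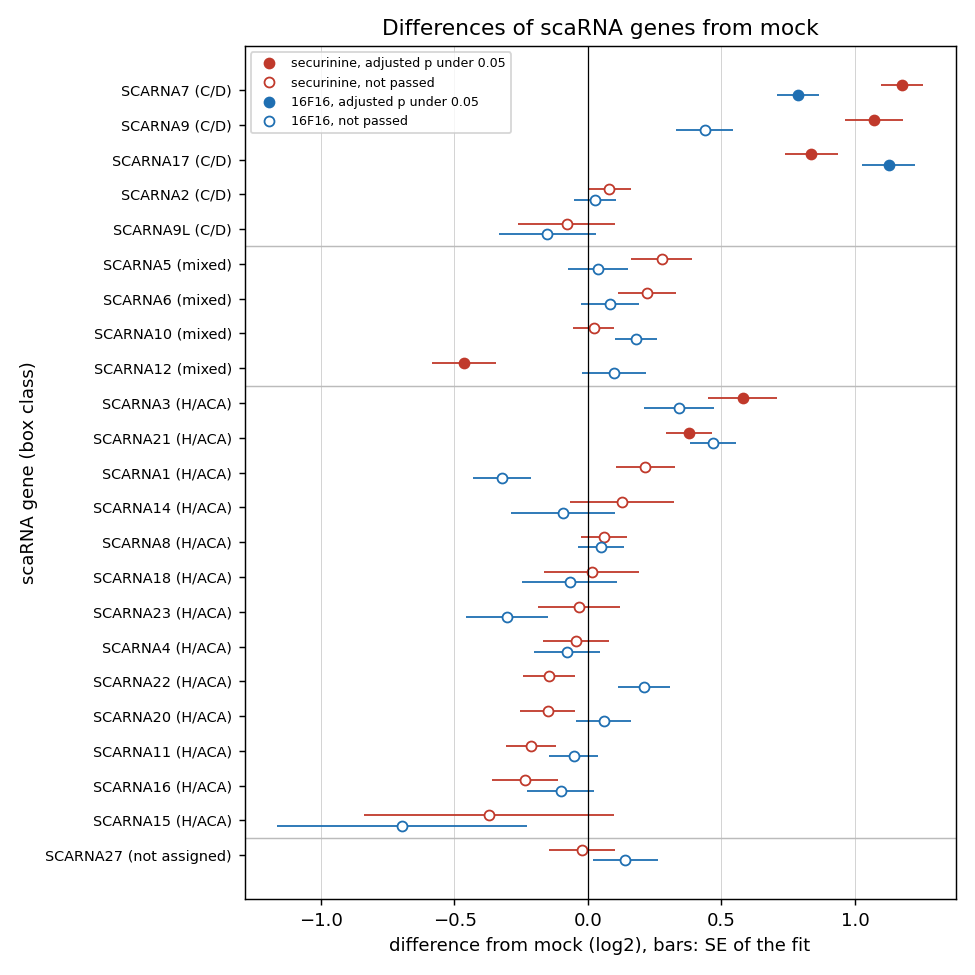
Difference of each scaRNA gene from mock (horizontal axis, log2) with securinine and with 16F16, grouped by box class; bars are the SE of the fit and filled points passed at an adjusted p under 0.05. The 3 box C/D genes at the top lie right of 0 for both compounds, and SCARNA12 is the filled point left of 0.

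The 2 compounds, whose comparisons above share the mock arrays, were also set against each other, at their different doses. Of 23 members 4 differed (17.4%, against 9.51% of all genes), 3 lower and 1 higher with 16F16 (3.96% and 5.55% of all genes). An unadjusted p under 0.05 was reached by 26.1% of members and 27.7% of all genes, and 60.9% of members and 55.8% of all genes did not overlap. SCARNA9 was lower with 16F16 by 0.63 ± 0.11 (difference -0.63, adjusted p = 0.028 in limma) and SCARNA7 by 0.39 ± 0.080 (difference -0.39, adjusted p = 0.041). SCARNA1 differed by -0.54 ± 0.11 (adjusted p = 0.041 in limma), since it lay above mock with securinine (5.84 and 6.02) and below it with 16F16. SCARNA12 was higher with 16F16 by 0.56 ± 0.12 (adjusted p = 0.045 in limma). SCARNA17 differed by 0.29 ± 0.10 without passing (95% interval 0.044 to 0.54, adjusted p = 0.13 in limma), and SCARNA21 by 0.092 ± 0.086 (-0.12 to 0.31). All 4 calls were lost without any 1 array, with adjusted p-values up to 0.19 in limma.

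Box class went together with length. The box C/D genes are 330 to 421 nt long in RefSeq, the mixed genes 266 to 330 nt and the box H/ACA genes 125 to 187 nt. RNA was purified with a column kit, per the labels' protocols, and such columns retain short RNA less well than long RNA. Any part of this retention in the differences from mock was not tested. Of the 6 members of 300 nt or more, 3 rose with securinine and 2 with 16F16, where 8.40% and 0.719% of all genes rose. These are the box C/D genes SCARNA7, SCARNA9 and SCARNA17 already counted above, without SCARNA9 for 16F16. The median differences of the 6 were 0.46 and 0.31. Of the 17 shorter members, 2 rose and 1 fell with securinine (19.0% of all genes passed) and 0 passed with 16F16 (1.50%). Their medians were -0.022 and 0.037. The length of SCARNA2 is 420 nt and that of SCARNA10 330 nt, and neither passed with either compound. Across the 23 genes, which share the same arrays, Spearman's rho of length and difference was 0.50 with securinine and 0.31 with 16F16. Without the box C/D genes (18 left), rho was 0.35 and 0.14. The rho of signal level and difference was 0.15 with securinine and 0.66 with 16F16, and -0.079 and 0.58 without the box C/D genes. Class and length cannot be told apart in these genes.

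**Figure D3:**
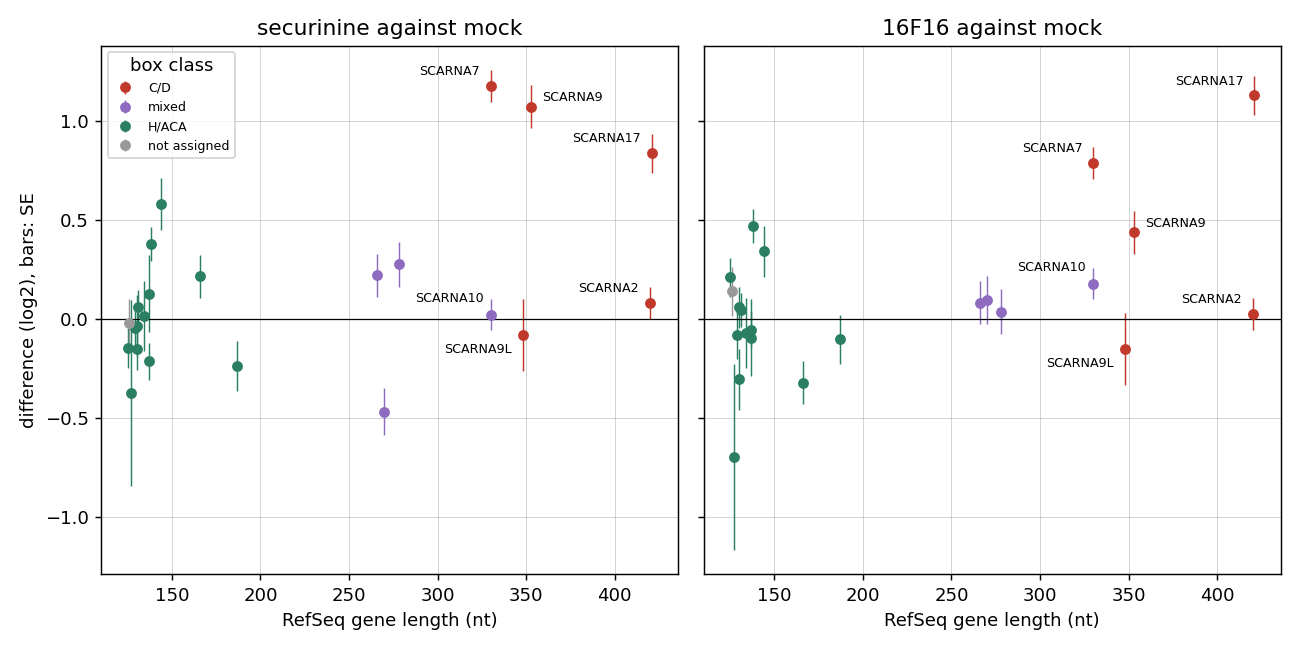
Difference from mock (vertical axis, log2, bars SE) against RefSeq gene length (horizontal axis, nt) of the 23 scaRNA genes, by box class and compound. The 6 genes of 300 nt or more are named: SCARNA7, SCARNA9 and SCARNA17 lie above 0 in both panels, while SCARNA2, SCARNA10 and SCARNA9L lie near 0.

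Host genes were the next comparison, since an intronic scaRNA starts as part of its host transcript. In RefSeq 22 of the 23 genes lie within a longer gene, SCARNA2 being the exception, and for 12 members the host was measured (11 hosts). SCARNA11, SCARNA15, SCARNA16 and SCARNA27 lie within more than 1 gene, of which 1 was chosen as the host. The tables used hold no strand for the scaRNA genes, so the hosts are genes that span them. A probe set within an intron also reads unspliced host RNA, which cannot be told apart from the mature scaRNA here. With securinine 3 of 11 hosts rose and 0 fell (27.3%, against 19.0% of all genes), and with 16F16 0 passed (limma, 4 with unadjusted p below 0.05). Over all genes 1.50% passed with 16F16 and 21.1% had an unadjusted p below 0.05.

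KPNA4, a nuclear import receptor gene that spans SCARNA7, measured 8.43 and 8.61 in mock, 9.29 and 9.17 with securinine and 8.59 and 8.55 with 16F16. It rose by 0.70 ± 0.098 with securinine (adjusted p = 0.0092 in limma) and was at 0.048 ± 0.098 with 16F16, where SCARNA7 rose by 0.79. The arrays of KPNA4 with 16F16 overlapped with mock, and those of SCARNA7 did not. CEP295 was at 0.25 ± 0.079 with securinine and 0.20 ± 0.079 with 16F16 without passing (adjusted p = 0.088 and 0.23 in limma), beside 1.07 and 0.44 for SCARNA9. CHD3, a chromatin remodeller gene that spans SCARNA21, was at -0.16 ± 0.083 and 0.078 ± 0.083, so it did not pass with either compound. PHB2 was at -0.28 ± 0.077 with securinine (adjusted p = 0.057 in limma) and -0.20 ± 0.077 with 16F16, while SCARNA12 was at -0.47 and 0.096. COP1, which spans SCARNA3, and SNHG22 were not measured. The difference between a scaRNA and its host was not tested.

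ATG16L1 rose by 0.51 ± 0.077 with securinine (adjusted p = 0.011 in limma) and was at -0.0055 with 16F16, and its 2 scaRNAs, SCARNA5 and SCARNA6, did not pass with either. KHDC4 rose by 0.36 ± 0.085 with securinine (adjusted p = 0.038 in limma), and its RNA SCARNA4, a U2 guide, was at -0.045 ± 0.12. Over the 12 pairs, host and scaRNA had the same sign in 6 with securinine and 6 with 16F16. Pearson's r across the 12 pairs, which share arrays and in 1 case a host, was 0.44 with securinine and 0.042 with 16F16.

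**Figure D4:**
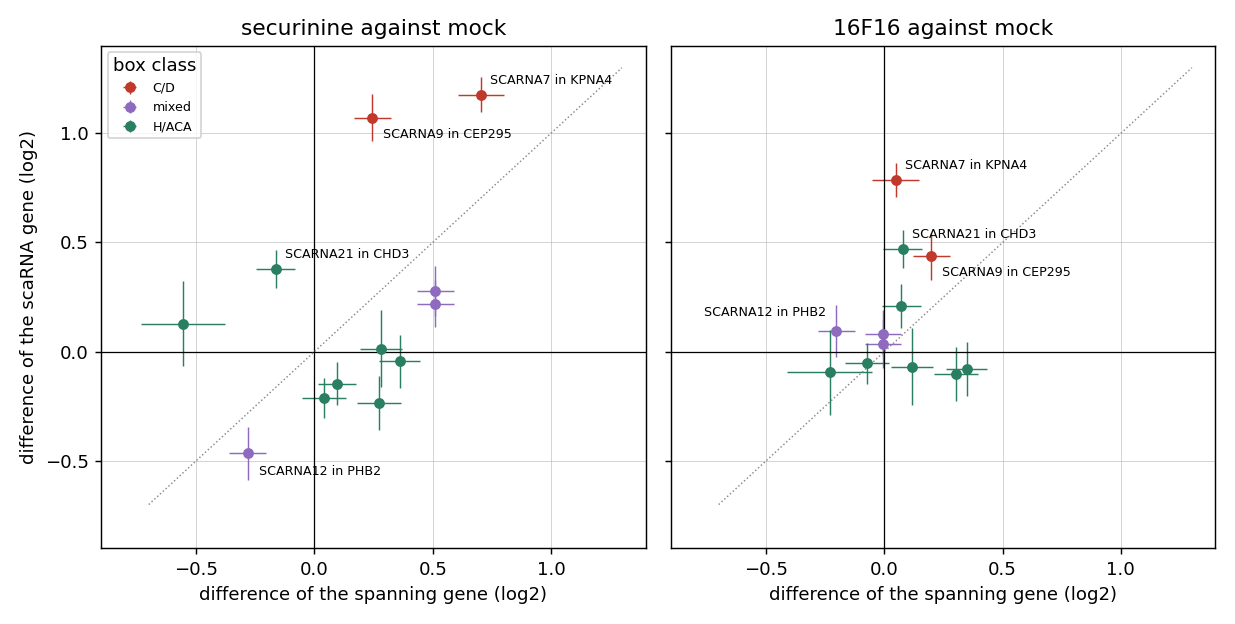
Difference of a scaRNA gene from mock (vertical axis, log2) against that of the gene that spans it (horizontal axis, log2) for 12 pairs, with SE bars and a dotted line of equal values. SCARNA7 and SCARNA9 lie above the line with both compounds, and with 16F16 KPNA4 is near 0 while SCARNA7 is at 0.79.

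The genes of the proteins that hold, build and trim these RNAs were counted next. Of 5 measured box H/ACA protein genes, 2 fell with securinine and 0 rose, where 10.6% of all genes fell and 8.40% rose. DKC1, which encodes dyskerin, was not measured. NHP2, a core protein, measured 8.52 and 8.43 in mock and 7.95 and 8.14 with securinine and fell by 0.42 ± 0.099 (adjusted p = 0.036 in limma). SHQ1, a dyskerin chaperone, fell by 0.71 ± 0.088 (9.09 and 9.13 against 8.40 and 8.40, adjusted p = 0.0069 in limma), and GAR1 (-0.13 ± 0.082) and NAF1 (-0.10 ± 0.077) did not pass. Of 3 box C/D protein genes, FBL, the methyltransferase fibrillarin, fell by 0.50 ± 0.10 (10.42 and 10.57 against 9.94 and 10.04, adjusted p = 0.026 in limma). NOP58 was at 0.12 ± 0.082 and SNU13 at -0.18 ± 0.10, and NOP56 was not measured. FBL was lower on the same securinine arrays on which SCARNA7, SCARNA9 and SCARNA17 were higher.

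Of 8 assembly genes, which include SHQ1 and NAF1 again, 3 fell and 0 rose with securinine, namely SHQ1, the ATPase RUVBL2 (-0.70 ± 0.087) and the scaffold NUFIP1 (-0.59 ± 0.083), while NOPCHAP1 was at 0.37 ± 0.11. That is 37.5% called, against 19.0% of all genes. Of 12 genes of Cajal bodies and nucleolar transport 2 fell and 0 rose, GEMIN5 (-0.51 ± 0.083) and GEMIN4 (-0.51 ± 0.11), both of the SMN complex that loads small nuclear RNAs. Their share of 16.7% called lay near the 19.0% of all genes. WRAP53, SMN1, SMN2 and XPO1, also listed, were not measured. COIL, which encodes coilin, was at 0.48 ± 0.13 without passing (7.32 and 7.24 against 7.82 and 7.70, adjusted p = 0.058 in limma), and GEMIN6 was at -0.39 ± 0.13. The 8 assembly genes had a median of -0.17 and the 12 Cajal body genes one of -0.17, with all genes at -0.035.

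Of 19 genes of RNA end processing and the exosome, the complex that trims scaRNA ends, 1 rose and 2 fell with securinine, 15.8% against 19.0% of all genes. The exosome subunit EXOSC5 fell by 1.23 ± 0.089 (9.91 and 9.96 against 8.65 and 8.78, adjusted p = 0.0026 in limma), and the 5' exonuclease XRN2 fell by 0.42 ± 0.081. TENT4A, a poly(A) polymerase, rose by 0.49 ± 0.077 (adjusted p = 0.012 in limma), and the debranching enzyme DBR1, which opens introns, was at -0.31 ± 0.086. The median of the list was -0.13. Of 13 noncoding host genes of nucleolar RNAs 1 rose and 2 fell (23.1%, also near the share of all genes), SNHG17 (0.54 ± 0.10), EPB41L4A-AS1 (-0.88 ± 0.11) and SNHG16 (-0.47 ± 0.090). SNHG20, which spans SCARNA16, was at 0.27 ± 0.093, and the median of the list was 0.010.

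With 16F16 XRN2 was the member of these lists that passed, at -0.55 ± 0.081 (9.20 and 9.17 against 9.69 and 9.78, adjusted p = 0.046 in limma). Tested with limma, 0 of 5 box H/ACA protein genes passed (1 with unadjusted p below 0.05), 0 of 3 box C/D protein genes (0), 0 of 8 assembly genes (4), 0 of 12 Cajal body genes (3) and 0 of 13 noncoding hosts (2). Over all genes 1.50% passed with 16F16 and 21.1% had an unadjusted p below 0.05, so counts of 0 lie near the background. RUVBL2 was at -0.51 ± 0.087, NUFIP1 at -0.41 ± 0.083, SHQ1 at -0.29 ± 0.088, GEMIN5 at -0.26 ± 0.083, PHAX, an export adaptor, at -0.34 ± 0.10 and SNHG20 at 0.30 ± 0.093. FBL was at -0.051 ± 0.10 and measured 10.53 and 10.36, and EXOSC5 was at -0.33 ± 0.089. Set against securinine, EXOSC5 (0.90, adjusted p = 0.010 in limma), EPB41L4A-AS1 (0.82, 0.018) and SHQ1 (0.42, 0.045) were higher with 16F16 and TENT4A (-0.41, 0.034) lower.

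The array also names other small RNA genes. Of 1072 microRNA genes, 45 rose and 22 fell with securinine (6.25%) and 10 rose and 3 fell with 16F16 (1.21%), where 19.0% and 1.50% of all genes passed, with medians of 0.018 and 0.028. Of 7 genes of vault RNAs, telomerase RNA and the RNase P and MRP RNAs, VTRNA1-3 fell with securinine, by 0.54 ± 0.11 (adjusted p = 0.026 in limma), and 0 of 7 passed with 16F16 (limma, 2 with unadjusted p below 0.05). TERC, itself a box H/ACA RNA with a Cajal body signal, was at -0.11 ± 0.081 with securinine. Whether scaRNA genes changed more often than these was not tested.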

How the data were processed

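Log2 values as deposited by the authors were taken for 53617 probe sets of 6 arrays. The submitters' processing notes name RMA and limma and no version. RMA values are relative, so a shift shared by most genes would be removed. The array's annotation release is not given in the labels. The number of arrays limits the precision.

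A platform table named 16098 probe sets (30.0%), covering 14884 genes, none by several symbols, and 37519 had no name there. The brightest probe set stood for each gene (779 genes had several). All 23 members matched the RefSeq table (GRCh38.p14) used for lengths and spanning genes, irrespective of strand. Box classes came from general knowledge, and that of SCARNA9L from its name.

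Limma 3.58.1 (R 4.3.3, lmFit and eBayes) was fitted to all 6 arrays with group as the term (3 residual and 2.68 prior degrees of freedom). Two-sided p-values were Benjamini-Hochberg adjusted over 14884 genes, and genes passed at 0.05. An exact permutation test of 2 against 2 arrays cannot go below 0.33, so none was used. The script was tested on simulated data. Alternatives were other normalizations, probe set rules, filters, variance priors, array subsets, the replicate block and leaving out each array.

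Members and gene lists were chosen with earlier results of these data known. Members were named when they passed without overlap of arrays, were among the 4 lowest adjusted p-values or the 4 brightest, or had a listed role (such as SCARNA1, SCARNA2, SCARNA10), and up to 4 genes per list by lowest adjusted p. Further members were chosen after their values were seen.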

Additional observations from a re-analysis of the deposited data

How the results depend on the processing

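Of the 6 members that passed with securinine, 3 passed with p-values adjusted over all probe sets, 3 with only the 4 arrays compared and 3 (lowest and highest) without any 1 array. With 16F16 the main count of 2 became 4 when only genes above the median of all probe sets were tested and 4 when the variance prior followed an intensity trend. The 16F16 count became 0 with adjustment over all probe sets and 0 with only the 4 arrays compared (limma, 5 and 6 members at an unadjusted p under 0.05). In both settings 0 of all genes passed with 16F16, so these losses against mock are not particular to the members. For 16F16 against securinine the count of 4 became 0 with adjustment over all probe sets, 0 with only the 4 arrays and 0 without any 1 array (limma, 4 to 7 at an unadjusted p under 0.05). Between the compounds, 0 of all genes passed with adjustment over all probe sets. With only the 4 arrays, genes outside the members still passed, so that loss was not shared by all genes. For securinine against mock, the count of all genes fell by a smaller share than that of the members with only the 4 arrays. It fell by a larger share with adjustment over all probe sets. Why the member counts moved was not tested, apart from the fewer arrays that some of them use. Same-numbered arrays deviated with correlations of -0.032, 0.038 and -0.050, so no shift shared by same-numbered arrays was visible. With 2 arrays per group this cannot tell whether the samples were paired. With the replicate number as a block, 4 members passed with securinine, 0 with 16F16 and 0 between the compounds (6 at an unadjusted p under 0.05 in each of these last comparisons). In that setting 0 of all genes passed with 16F16, while genes outside the members still passed between the compounds. No called member changed sign under any of the 15 alternatives. The securinine median of the 23 members ranged from -0.021 to 0.077 and that of the box H/ACA genes from -0.13 to 0.077, so both changed sign. With 2 arrays per group and no detection calls, dim members such as SCARNA15 allow no statement on small differences.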
